A study of Mus musculus with 2 samples.

Results

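The R-spondin system was followed in cultured Nestin+ mesenchymal stromal cells through 9 genes: the ligands Rspo1 to Rspo4, the receptors Lgr4, Lgr5 and Lgr6, and the ligases Znrf3 and Rnf43. These 9 of 49585 gene rows were taken by name, and the gene family was chosen on earlier results for the same RPKM values, in which Rspo2, Rspo3 and Lgr5 already stood out. The levels and ratios of the members are therefore a description and carry no test. The series holds 1 library from heart cells and 1 from bone marrow cells of Nestin-GFP transgenic C57BL/6 mice aged 7 days. The Nestin-GFP reporter marks cells that transcribe the gene of this filament protein. Both cultures were sequenced at passage 10. The medium of the heart cells held cardiotrophin-1 (4 ng/ml), bFGF (20 ng/ml), EGF (20 ng/ml), N2 and B27. The labels name a separately published growth medium for the bone marrow cells, so tissue of origin and medium cannot be told apart. The labels call both cultures mesenchymal stem cells and give no number of animals.

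R-spondins are secreted proteins that strengthen Wnt signalling. ZNRF3 and RNF43 are membrane-bound ubiquitin ligases that remove Frizzled receptors from the cell surface and so lower a cell's sensitivity to Wnt ligands. An R-spondin bound to LGR4, LGR5 or LGR6 draws the ligase away, which leaves more Frizzled in the membrane. Lgr5 marks stem cells of the intestine and of hair follicles, and Rspo2 and Rspo3 are needed for the development of limbs and of blood vessels in the mouse.

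Library depth, recovered from the RPKM values, was 64872680 reads for heart and 53999961 for bone marrow, and 10643 and 10609 rows reached 1 RPKM (reads per kilobase of gene model, scaled to library size). With 1 library per tissue no difference has a replicate check, and each interval below covers counting error only. Of 10 stromal markers, 9 reached 1 RPKM in at least 1 library, with Col1a1, a fibrillar collagen gene, at 1751 RPKM in heart and 1777 RPKM in bone marrow. Thy1 and Eng, widely used mesenchymal stromal markers, reached it in heart alone, at 16.7 and 33.9 RPKM in heart against 0.0603 and 0.576 RPKM in bone marrow. Nes stood at 8.74 RPKM in heart and 1.20 RPKM in bone marrow, and Lepr, a marker of bone marrow stroma, was below 1 RPKM in both. All 5 endothelial, 6 cardiomyocyte, 6 haematopoietic, 5 epicardial or mesothelial and 4 epithelial markers stayed below 1 RPKM in both libraries. In these bulk samples, fewer cells of a type and less RNA per cell cannot be told apart.

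The dominant R-spondin ligand differed between the libraries. Rspo3 (chr10:29452416-29535867, minus strand, GRCm38) stood at 25.5 RPKM in heart, from 5116 reads, and at 0.0240 RPKM in bone marrow, from 4 reads. It was 1065-fold higher in heart, and the exact 95% interval ran from 416 to 3909. Rspo2 (chr15:43020811-43170818, minus strand) showed the opposite pattern, at 0.362 RPKM in heart, from 78 reads, and 41.6 RPKM in bone marrow, from 7459 reads. It was 115-fold lower in heart, with an interval of 91.9 to 146. The read counts of Rspo2, and so this interval, rest on an inferred gene length. Rspo1 (chr4:124986430-125009099) and Rspo4 (chr2:151842927-151874668), both on the plus strand, were at the edge of detection in both cultures. Rspo1 had 1 read in heart and 4 in bone marrow (0.00795 and 0.0382 RPKM), and the interval of its ratio, 0.00423 to 2.10, includes equal levels. Rspo4 had 0 reads in heart, where 3 reads would be 0.0195 RPKM, and 1 read in bone marrow, so no fold is given.

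Set against all genes, both active ligands lay near the ends of the distribution. On the scale log2((heart + 1)/(bone marrow + 1)) of RPKM, used for every log2 ratio here, Rspo3 had 4.69, the 29th highest of the 7659 genes with 5 RPKM or more in at least 1 library. Rspo2 had -4.97, the 18th lowest of the same genes. This scale understates differences of genes with low levels. In level, Rspo3 ranked 1666 of 10641 genes at or above 1 RPKM in heart, and Rspo2 ranked 1096 of 10607 in bone marrow.

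**Figure D1:**
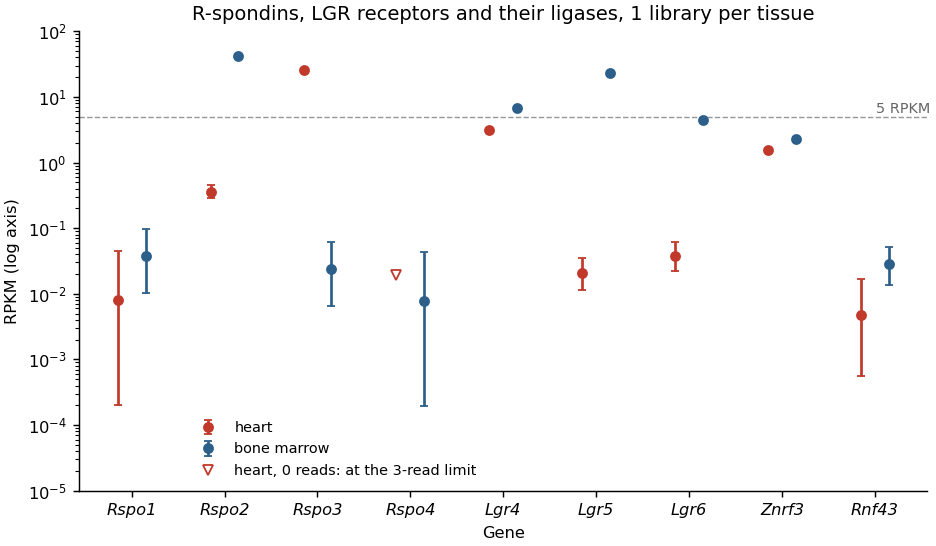
RPKM of the 9 genes on a log axis in the heart library (red) and the bone marrow library (blue), with exact Poisson 95% intervals; the open triangle marks Rspo4 in heart, with 0 reads, at its 3-read limit. Rspo3 is high in heart alone, Rspo2, Lgr5 and Lgr6 in bone marrow alone, and Lgr4 and Znrf3 are above 1 RPKM in both.

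Added per length, the 4 ligand genes differed far less than its single genes. Their summed level was 25.9 RPKM in heart and 41.6 RPKM in bone marrow, which is 1.61-fold lower in heart. Rspo3 made up 98.6% of the sum in heart and 0.0576% in bone marrow. Rspo2 made up 1.40% of the sum in heart and 99.8% in bone marrow. Each culture therefore carried 1 R-spondin transcript almost to the exclusion of the others.

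The receptors differed in number as well as in level. Lgr5 (chr10:115450311-115587780, minus strand) stood at 0.0210 RPKM in heart, from 14 reads, and at 23.5 RPKM in bone marrow, from 13024 reads. It was 1118-fold lower in heart, with an interval of 666 to 2045, and its log2 ratio of -4.58 was the 27th lowest of the 7659 genes. Lgr6 (chr1:134983301-135105276, minus strand), which marks stem cells of mouse skin, stood at 0.0383 RPKM in heart, from 17 reads, and at 4.51 RPKM in bone marrow, from 1668 reads. It was 118-fold lower in heart (73.4 to 203), with a log2 ratio of -2.41, but its higher level lay just under the 5 RPKM floor. Lgr4 (chr2:109917647-110014257, plus strand), the most broadly expressed receptor, was present in both, at 3.10 RPKM in heart and 6.76 RPKM in bone marrow, from 1182 and 2148 reads. It was 2.18-fold lower in heart, with an interval of 2.03 to 2.35. Its log2 ratio of -0.92 lay just short of the 2-fold limit, which it passed (-1.10) with a pseudocount of 0.1.

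The heart culture thus had 1 receptor gene above 1 RPKM and the bone marrow culture 3. Summed over Lgr4, Lgr5 and Lgr6, the level was 3.16 RPKM in heart and 34.8 RPKM in bone marrow, 11.0-fold lower in heart. Lgr4 made up 98.1% of that sum in heart and 19.4% in bone marrow. Lgr5 made up 0.666% of it in heart and 67.6% in bone marrow, and Lgr6 the remainder in each. The summed ligand level per summed receptor level was 8.20 in heart and 1.20 in bone marrow, a ratio of RNA levels that says nothing of protein.

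**Figure D2:**
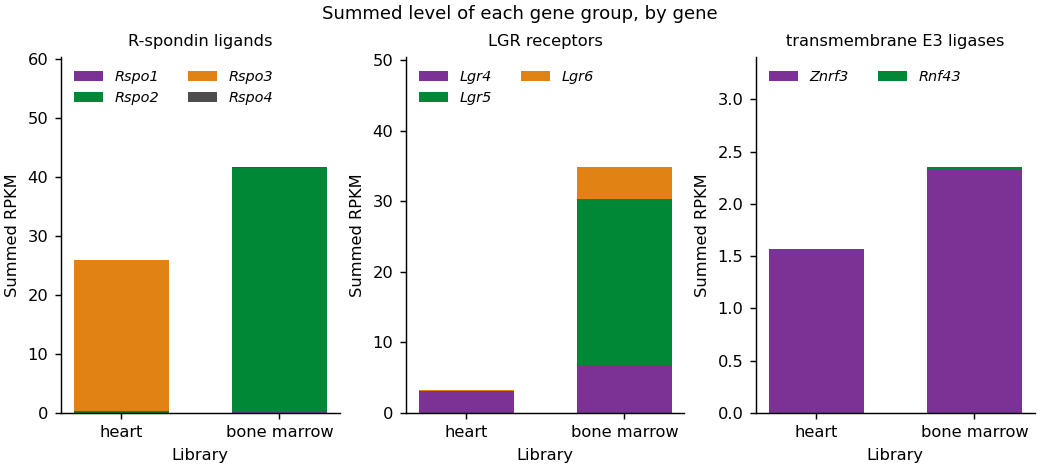
Summed RPKM of the R-spondin ligands, the LGR receptors and the transmembrane ligases in the heart library (left bar) and the bone marrow library (right bar), with each gene's part in colour; the 3 panels have their own linear axes from 0. The ligand sums are 25.9 and 41.6 RPKM and come from different genes, while the receptor sums are 3.16 and 34.8 RPKM.

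The promoters of Lgr4 and Lgr6 are shown because both receptor genes had lower levels in heart, Lgr6 far more so. Each sequence runs from 250 bases before to 50 bases after the RefSeq gene start on GRCm38.p6, 5′ to 3′ on the strand of the gene, at chr2:109917397-109917696 (plus strand) for Lgr4 and chr1:135105227-135105526 (minus strand) for Lgr6. Capitals mark the GC box GGGCGG or its reverse complement.
Lgr4: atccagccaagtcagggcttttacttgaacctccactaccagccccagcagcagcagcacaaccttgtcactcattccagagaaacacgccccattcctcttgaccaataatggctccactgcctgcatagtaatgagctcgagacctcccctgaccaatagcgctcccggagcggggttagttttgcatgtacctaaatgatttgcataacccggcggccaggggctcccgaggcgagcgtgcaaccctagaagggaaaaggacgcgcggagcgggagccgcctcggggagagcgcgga
Lgr6: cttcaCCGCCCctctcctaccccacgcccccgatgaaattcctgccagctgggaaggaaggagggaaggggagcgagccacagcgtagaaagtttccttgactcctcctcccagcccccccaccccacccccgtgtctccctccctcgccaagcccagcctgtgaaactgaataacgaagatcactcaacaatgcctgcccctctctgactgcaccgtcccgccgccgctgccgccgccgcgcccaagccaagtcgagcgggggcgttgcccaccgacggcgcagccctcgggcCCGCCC
The Lgr4 window holds no GC box and the Lgr6 window holds 2, against 35.7% of all 32851 promoters of the table with at least 1. GC content was 58.3% for Lgr4 and 67.7% for Lgr6, with a median of 52.7% over all promoters. The CpG dinucleotide occurred 18 times in Lgr4 and 24 times in Lgr6, and the median promoter had 7. Rspo4 and Rspo1, both at the edge of detection, had 71% and 69% GC with 31 and 29 CpG. The Rspo4 window held 2 GC boxes and that of Rspo1 none. The windows of Rnf43 had 46.7% and 44.3% GC, 10 and 3 CpG and no GC box. A link between these promoter features and the levels was not tested. Sites for TCF/LEF factors, the DNA-binding partners of beta-catenin, were searched on both strands as CTTTGAT and CTTTGTT, and also as CTTTGAA and further as CTTTGTA. None was found in the 6 windows of the 5 members in the table, Rspo1, Rspo4, Lgr4, Lgr6 and Rnf43, while 16.9% of all promoters hold at least 1. Rspo2, Rspo3, Lgr5 and Znrf3 were not among the matched genes.

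Of the ligases, Znrf3 carried almost the whole signal in both cultures. At chr11:5276324-5444847 on the minus strand, it stood at 1.56 RPKM in heart, from 800 reads, and at 2.32 RPKM in bone marrow, from 989 reads, a ratio of 0.673 (0.613 to 0.740). Rnf43 (chr11:87662722-87735539, plus strand) had 2 reads in heart and 10 in bone marrow, or 0.00470 and 0.0282 RPKM, with a ratio of 0.166 (0.0177 to 0.781). Their sum was 1.57 RPKM in heart and 2.35 RPKM in bone marrow, a ratio of 0.667. The summed receptor level was 2.01 times the summed ligase level in heart and 14.8 times in bone marrow.

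Within the heart library the order of levels was Rspo3, Lgr4, Znrf3 and Rspo2, followed by 5 genes below 0.05 RPKM. Among those 5, the Poisson intervals of Lgr6 (0.0223 to 0.0612 RPKM) and Lgr5 (0.0115 to 0.0353 RPKM) overlap. Those of Rspo1 (0.000201 to 0.0443 RPKM), Rnf43 (0.000569 to 0.0170 RPKM) and Rspo4 (0 to 0.0240 RPKM) also overlap that of Lgr5. Within bone marrow the order was Rspo2, Lgr5, Lgr4, Lgr6 and Znrf3, none of which overlaps its neighbour. Below them stood Rspo1, Rnf43, Rspo3 and Rspo4, from 0.0382 to 0.00781 RPKM, with overlapping intervals.

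Only 4 of the 9 members, Rspo2, Rspo3, Lgr4 and Lgr5, had at least 5 RPKM in the higher library. A gene past that floor was counted when its log2 ratio was 1 or more in size. Rspo3 was the 1 member counted as higher in heart, beside 7.56% of all 7659 genes past the floor. Rspo2 and Lgr5 were the 2 counted as higher in bone marrow, beside 9.51% of all genes. As the members were chosen by these same ratios, the counts are given as description. By a limit set after the values were seen, 7 of 2220 genes at or above 20 RPKM in heart, Rspo3 among them, were below 0.05 RPKM in bone marrow. In the other direction 7 of 2418 genes at or above 20 RPKM in bone marrow, Lgr5 among them, were below 0.05 RPKM in heart.

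**Figure D3:**
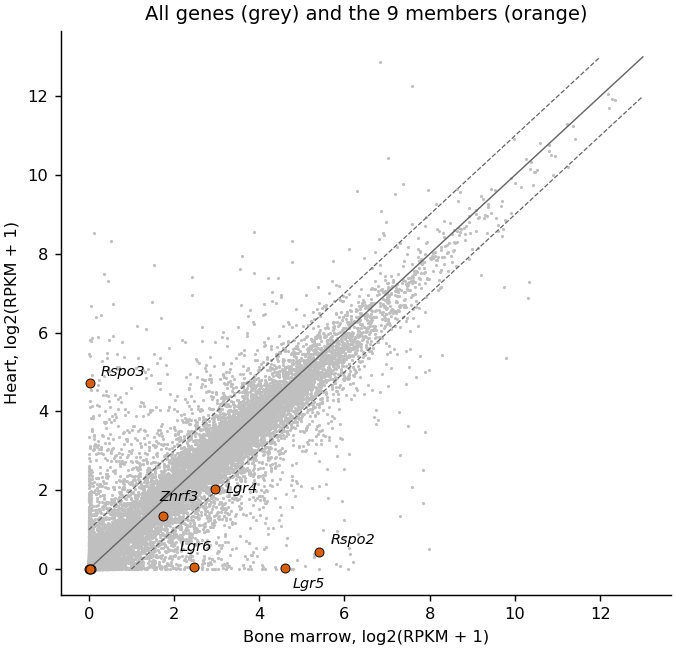
Each grey point is a gene, with log2(RPKM + 1) in bone marrow on the x axis and in heart on the y axis; the solid line marks equal levels and the dashed lines a 2-fold difference. Rspo3 lies far above the upper dashed line, Rspo2, Lgr5 and Lgr6 far below the lower one, and Lgr4 and Znrf3 between them.

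The nearest active genes past the floor were within 2-fold. Of the 18 nearest rows at or above 1 RPKM on either side of the 9 members, 11 reached 5 RPKM, and none of these was past the limit. Eif3e, a translation initiation factor gene 79.2 kb from Rspo2, stood at 104 RPKM in heart and 169 RPKM in bone marrow, a log2 ratio of -0.70. Angpt1, the angiopoietin gene on the other side of Rspo2, had 0.53. Rnf146, a ubiquitin ligase gene 90.0 kb from Rspo3, had -0.38, at 8.21 RPKM in heart and 11.0 RPKM in bone marrow. Zfc3h1, 17.5 kb from Lgr5, had -0.07, while Ptprb, a receptor phosphatase gene 714 kb away on the other side, had -1.88 at 0.533 RPKM in heart and 4.65 RPKM in bone marrow. Kremen1, which encodes a receptor for the Wnt inhibitor Dickkopf and lies 14.8 kb from Znrf3, had -0.50.

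Within 1000 kb of the gene starts, the count of genes past the limit was highest around Lgr6. Around Lgr6, 3 of 16 genes past the floor were higher in heart and 5 in bone marrow, with log2 ratios from -2.84 to 2.10. Over all genes past the floor, 7.56% were higher in heart and 9.51% in bone marrow. Around Rspo3, 2 genes passed the floor, and both were lower in heart where Rspo3 itself was higher, Rnf146 within the limit and Echdc1, named after its value was seen, barely past it. Around Lgr5 the 6 such genes ranged from -1.23 to -0.07, and around Rspo2 the 3 such genes from -1.06 to 0.53. Around Lgr4, 1 of 3 was higher in heart, and around Rspo4, 1 of 15 in each direction. Around Znrf3, Rnf43 and Rspo1, 0 of 25, 0 of 16 and 0 of 8 genes were past the limit. Rows that overlap a member held at most 6 reads, those of Rspo4os in heart, against 0 in bone marrow. The deposited values assign those 6 reads to Rspo4os and 0 reads to Rspo4 in heart. The use of strand is not given, so the strand these few reads came from is not known.

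**Figure D4:**
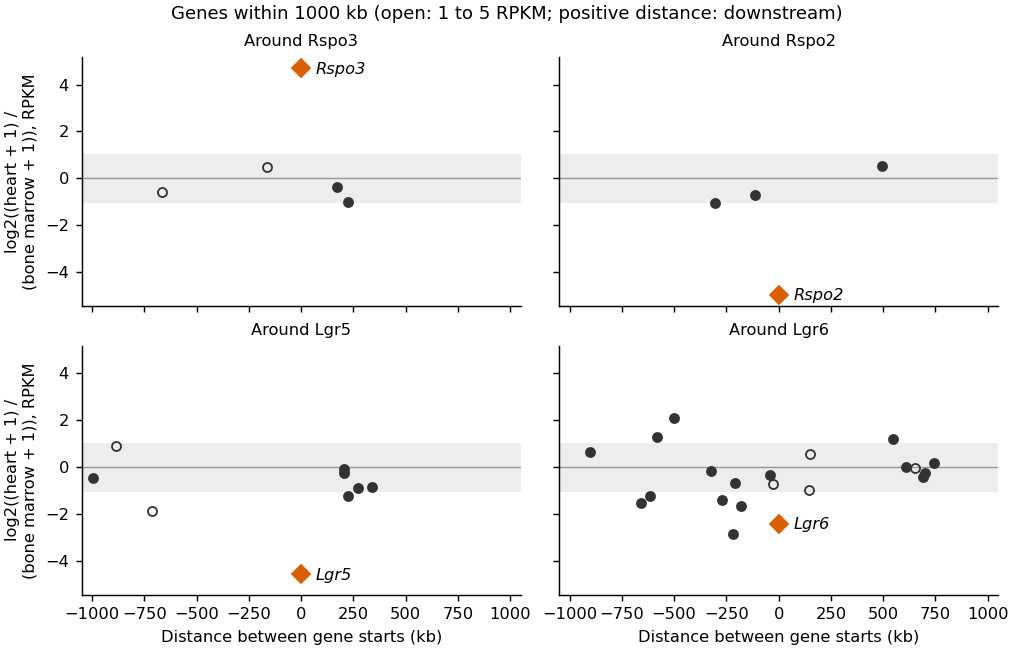
log2 ratio of heart over bone marrow, from RPKM + 1, for genes within 1000 kb of the starts of Rspo3, Rspo2, Lgr5 and Lgr6 (orange diamonds) against the distance between gene starts in kb, positive downstream. Filled points have 5 RPKM or more in the higher library, and the grey band spans 2-fold; around Rspo3, Rspo2 and Lgr5 the filled points lie between -1.23 and 0.53.

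Other Wnt pathway genes past the limit were mostly higher in bone marrow. Over 5 lists of 79 genes, 34 reached 5 RPKM, of which 1 (2.94%) was higher in heart and 7 (20.6%) in bone marrow. The shares over all 7659 genes past the floor were 7.56% and 9.51%. The median log2 ratio of the 34 was -0.22, beside -0.15 over all genes past the floor. Among the Wnt ligands and their processing genes, 0 of 4 past the floor were higher in heart and 2 in bone marrow. Wnt10b, a ligand known for favouring bone over fat formation, stood at 0.112 RPKM in heart and 5.47 RPKM in bone marrow. Porcn, the enzyme that adds the lipid Wnt ligands need for secretion, stood at 1.97 and 8.64 RPKM in the same order. Wls, the carrier of Wnt ligands to the cell surface, had a log2 ratio of 0.50. Wnt5a lay just inside the log2 limit, at -0.99, with 2.09 RPKM in heart and 5.15 RPKM in bone marrow, a plain RPKM ratio of 0.405.

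Frizzled receptors, on which ZNRF3 and RNF43 act, were read together with co-receptors. Of these 16 genes, 13 reached 1 RPKM in at least 1 library and 3 stayed below it in both. Of 11 past the floor, Ror1 alone was higher in heart, 2 were higher in bone marrow, and 8 lay within the limit. Fzd1, at 0.86, passed it toward heart when the libraries were scaled to the median ratio. Fzd5 stood at 2.49 RPKM in heart and 19.8 RPKM in bone marrow, and Fzd8 at 4.15 RPKM in heart and 14.7 RPKM in bone marrow. Ror1, a receptor tyrosine kinase for Wnt5a, went the other way, at 14.7 RPKM in heart and 1.69 RPKM in bone marrow. Fzd7 lay inside the log2 limit, at -0.93, with 8.28 RPKM in heart and 16.6 RPKM in bone marrow, a plain RPKM ratio of 0.497. Of 3 secreted inhibitors past the floor, Sfrp4 stood at 0.123 RPKM in heart and 8.41 RPKM in bone marrow, while Dkk3 and Sfrp1 had -0.06 and 0.17. Below the floor, Frzb stood at 3.66 RPKM in heart and 0.0858 RPKM in bone marrow, and Dkk2 at 1.82 and 0.0150 RPKM. Sfrp2 and Wif1, also below it, were lower in heart, at 0.265 and 0.0127 RPKM against 1.83 and 1.52 RPKM in bone marrow.

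The intracellular machinery lay within the limit, with 0 of 13 genes past the floor beyond it and a median of -0.02. The largest ratios in size among these 13 were those of Btrc (0.69) and Ctnnb1 (0.54), which encode a ligase subunit that targets beta-catenin and beta-catenin itself, and of Dvl2 (-0.43) and Bcl9l (-0.42). Among 11 known targets of beta-catenin other than the members, 3 passed the floor. Ccnd1, the cyclin D1 gene, stood at 15.5 RPKM in heart and 106 RPKM in bone marrow, and Myc at 6.00 RPKM in heart and 22.6 RPKM in bone marrow. Both genes are also driven by growth factor signalling. Nkd2, a feedback inhibitor, had -0.53. Axin2, the most widely used readout of beta-catenin activity, was named after its values were seen. It was low in both, at 0.241 RPKM in heart and 1.18 RPKM in bone marrow. Of the other targets below the floor, Lef1 (0.556 RPKM in heart and 0.306 in bone marrow), Bambi (1.27 and 1.08) and Sp5 (0.0367 and 0) were higher in heart. Lower in heart were Apcdd1 (0.176 and 2.39 RPKM), Tcf7 (0.763 and 1.42), Tnfrsf19 (0 and 0.0388) and, by little, Nkd1 (0.687 and 0.703).

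**Figure D5:**
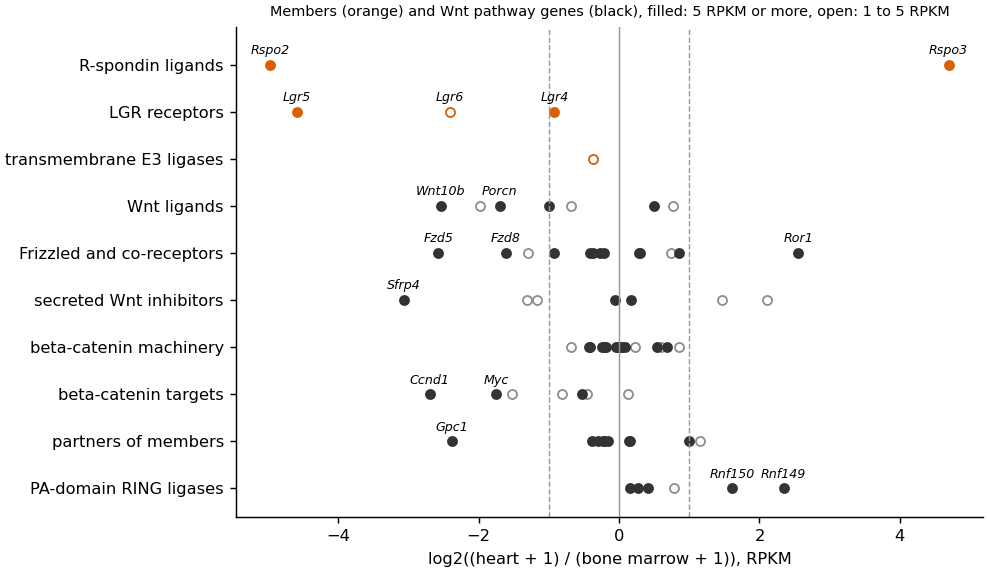
log2 ratio of heart over bone marrow, from RPKM + 1, for the members (orange) and the other listed genes (black or grey), 1 row per list; filled points have 5 RPKM or more in the higher library, open points 1 to 5 RPKM, and genes below 1 RPKM in both are left out. Rspo2 (-4.97) and Lgr5 (-4.58) lie lowest and Rspo3 (4.69) highest of all plotted genes.

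Of 14 partners of the members at or near the cell surface, 9 passed the floor, and 8 of these lay inside the log2 limit. Of the other 5, Gpc2 stood at 1.69 RPKM in heart and 0.212 RPKM in bone marrow, and 4 were below 1 RPKM in both. R-spondins bind heparan sulphate proteoglycans, and in frog embryos Syndecan-4 acts as a receptor for Rspo3. Sdc4 stood at 28.6 RPKM in heart and 33.6 RPKM in bone marrow, and Sdc1, Sdc2 and Sdc3 had log2 ratios between -0.39 and 0.15. The glypican genes Gpc4 and Gpc6 had -0.21 and -0.29, and Gpc1 was the 1 of the 9 past the log2 limit, at 34.1 RPKM in heart and 182 RPKM in bone marrow. Iqgap1, which encodes a scaffold protein that binds LGR4, had -0.15. Bmpr1a encodes a BMP receptor that RSPO2 removes from the cell surface through ZNRF3 in frog embryos. It stood at 46.5 RPKM in heart and 22.9 RPKM in bone marrow, which is 2.04-fold, or a log2 ratio of 0.99 with the pseudocount, so close to the limit that the scalings tried, which shift ratios by 0.07 to 0.15, would carry it past.

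Relatives of the receptors and ligases were read beside the members. The hormone and relaxin receptors with leucine-rich repeats, Fshr, Lhcgr, Tshr, Rxfp1 and Rxfp2, were all below 1 RPKM in both libraries. Of 9 ligases related to ZNRF3 and RNF43 by their protease-associated and RING domains, 5 passed the floor, 2 were higher in heart and 0 in bone marrow. The shares over all genes past the floor were 7.56% for heart and 9.51% for bone marrow. Rnf149 stood at 87.5 RPKM in heart and 16.5 RPKM in bone marrow, and Rnf150 at 11.2 RPKM in heart and 2.99 RPKM in bone marrow. Rnf167 and Rnf13 had 0.41 and 0.27.

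Endothelial cells are a known source of Rspo3, and many epithelia hold LGR5+ cells, so markers of both were read beside these genes. The 5 endothelial markers summed to 0.953 RPKM in heart and 0.245 RPKM in bone marrow, with Emcn highest at 0.690 RPKM in heart and Pecam1 listed at 0 in bone marrow. Tek stood at 0.177 RPKM in heart and 0.169 RPKM in bone marrow, and Cdh5 at 0.00734 and 0.00441 RPKM. Kdr was lower in heart, at 0.0119 RPKM against 0.0574 RPKM in bone marrow. The 4 epithelial markers summed to 0.118 RPKM in heart and 0.897 RPKM in bone marrow, and 1 of the 4, Epcam, was listed at 0 in bone marrow. Cdh1, the E-cadherin gene, stood at 0.00337 RPKM in heart and 0.623 RPKM in bone marrow, and Krt18, a keratin gene, at 0.0220 RPKM in heart and 0.212 RPKM in bone marrow. Krt8 and Epcam went the other way, at 0.0854 and 0.00756 RPKM in heart against 0.0616 and 0 RPKM in bone marrow. The part of such cells in the results was not tested.

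Genes with the most similar pair of levels were found by Euclidean distance over log2(RPKM + 1) in the 2 libraries. For Rspo3 they were P2ry1, Atp6v0d2 and Ahsg (distances 0.17, 0.19 and 0.21). For Rspo2 they were Ly6c1, Gpx3 and Cdsn (0.14, 0.15 and 0.18). For Lgr5 they were Hoxc10, Slc13a5 and Alpl (0.03, 0.13 and 0.18). For Lgr4 they were Rab3ip, Lmnb2 and Tm7sf2 (0.01, 0.03 and 0.03). With 2 libraries, likeness is no more than a similar level in each.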

How the data were processed

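The authors deposited 1 table of RPKM per library, per the file headers; each library was made from 1 ug of total RNA, per the labels' protocols. The submitters' processing notes name mm8, but 45149 of 49585 rows carry the region of a GENCODE M21 gene on GRCm38, so regions are read on GRCm38. The sources used here name no aligner, counter or strand setting.

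With exon-union lengths from GENCODE M21, RPKM values are whole multiples of 1 read, which gave the library totals; 12288 of 14255 genes above 0 in both libraries (86.2%) were whole within 0.02 reads. For Rspo2, whose region has no equal in GENCODE, the shortest length giving whole reads in both libraries was 3324 bases. A multiple of it would raise both read counts, narrow the intervals and leave the ratio as it is. Ratios have exact conditional (Clopper-Pearson) and levels exact Poisson 95% intervals, which cover counting error only, since PCR copies were not told apart. No count model was fitted and no p-value computed.

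Rows with numbered repeats of a name (187) were represented by the highest, and 26 date-like names were read from their regions. Named were the members, up to 4 genes per list with the largest ratio past the floor, all targets and partners past it, the nearest active neighbours, and the 3 genes nearest in level. Fzd1, Frzb, Dkk2, Sfrp2, Wif1, Gpc2, Axin2, Echdc1 and the single cell type markers were named outside this rule, after their values were seen. So were the other targets of beta-catenin below the floor. The members and lists were chosen with earlier results of these data known. Promoters are from RefSeq (GRCm38.p6); 5 of 9 members matched. Alternatives changed the pseudocount, floor, fold, scaling or row handling. Intervals came from scipy 1.17.1, tables from pandas 2.3.3 with numpy 2.4.6 under Python 3.11.15, and plots from matplotlib 3.10.9; the calculations were tested on simulated data.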

Additional observations from a re-analysis of the deposited data

How the results depend on the processing

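Rspo2, Rspo3 and Lgr5 were past the fold limit under all 11 alternatives. With a pseudocount of 0.1 Lgr4 joined them, and with a floor of 1 RPKM or none Lgr6 did. The log2 ratio of Rspo3 ranged from 2.60 to 7.69, that of Rspo2 from -6.50 to -3.12 and that of Lgr5 from -7.61 to -2.51, with the pseudocounts of 5 and 0.1 at the ends. Scaling moved log2 ratios of abundant genes by 0.07 to 0.15 toward heart. For the summed receptors the value of -3.11 became -3.42 and -2.29 with pseudocounts of 0.1 and 5, and -2.99, -3.04 and -3.03 when scaled to the median ratio, the upper quartile and the same RPKM sum. For the summed ligands -0.66 became -0.59 with a pseudocount of 5, and -0.52, -0.58 and -0.57 under those scalings and -0.60 under a trimmed mean. For the summed ligases -0.38 became -0.55 and -0.16 with the pseudocounts and -0.29 under the median scaling. Of the other Wnt genes, 1 was higher in heart and 7 in bone marrow. With a floor of 1 RPKM or none these were 3 and 12, and with a floor of 20 RPKM 0 and 2. The 2 genes left at that floor were the targets Ccnd1 and Myc, with no Wnt ligand, receptor or inhibitor. With a 4-fold limit the counts were 1 and 4, and under the median scaling 2 and 7. The cause of these shifts was not tested beyond the construction of each alternative. Depth limits Rspo1, Rspo4 and Rnf43, each with at most 10 reads per library. No paired analysis was possible because each tissue has 1 library.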
